A study of Homo sapiens with 12 samples.

Results

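The NF-κB pathway and its target genes were examined through 50 genes chosen by name, of 60617 gene identifiers measured by RNA-seq in 2 colon cancer lines. The choice was made with earlier results of these data known. The 50 genes comprised 5 subunits of the transcription factor, 8 inhibitors, 9 adaptors and kinases, 13 cytokines and chemokines, 8 early transcription factors and response genes and 7 other targets. Of the 50, 46 reached the filter on low counts and were tested among 15692 genes. The other 4, IL1A, IL1B, IL6 and TNF, were too low to test and are given as counts. The 2 lines were HCT 116p53-/-, derived from a human colon carcinoma and lacking p53, and uL3ΔHCT 116p53-/-, a derivative of it that the sample labels describe as RPL3 KO and the study's methods as stably silenced for uL3, the ribosomal protein that RPL3 encodes. The study compared the 2 lines to learn what loss of uL3 does to the response to nucleolar stress. Cells of each line were given 5 nM Act D (actinomycin D, which at low dose blocks synthesis of ribosomal RNA) or vehicle for 24 h, and each of the 4 groups had 3 libraries. Both lines carried the p53 deletion, and the uL3Δ line was a single stable sub-line, so that any difference between the lines covers all that separates the 2 cultures.

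NF-κB is a family of dimers of REL-type proteins that are held inactive in the cytoplasm by IκB inhibitors. Signals from cytokine, death and pattern-recognition receptors pass through TRAF adaptors, cIAP ubiquitin ligases and kinases to the IκB kinase complex, the inhibitors are degraded, and the dimers enter the nucleus and bind κB sites near their targets. Those targets include the pathway's own inhibitors, which close a feedback loop, and chemokines, adhesion molecules and survival genes, and in colon epithelium the pathway is best known for its part in inflammation and tumour growth.

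The deposited values were RSEM expected counts, with totals between 10087925 and 21138886 per library, and levels are given here as CPM, a count divided by its TMM-adjusted library total. RPL3, the gene named in the knockout label, was at 1151, 1121 and 1141 CPM in HCT 116p53-/- cells with vehicle and at 1188, 1337 and 1202 CPM in the libraries labelled uL3Δ. With Act D it was at 1137, 1132 and 1112 CPM and 1259, 1132 and 1279 CPM. Under the uL3Δ label the RPL3 transcript was thus not reduced, and every difference between the lines below is one between libraries so labelled. Of the markers of colon epithelium, CDH1 had a mean of 66.8 ± 2.34 CPM (SD, n = 3) with vehicle in HCT 116p53-/- cells, against 0.445 ± 0.271 CPM under the uL3Δ label, and CDX2 was at 14.8 ± 0.581 and 0.177 ± 0.0862 CPM. KRT8 was lower as well, at 1117 ± 67.6 and 777 ± 54.5 CPM, whereas KRT18 was higher under the uL3Δ label, at 605 ± 25.3 and 840.3 ± 51.5 CPM (0.47 ± 0.08 (SE), adjusted p = 2.28e-05), and CLDN3 did not pass (0.46 ± 0.42 (SE), adjusted p = 0.345). The sum of 13 colon epithelial markers was between 2526 and 2881 CPM in HCT 116p53-/- libraries and between 1608 and 1999 CPM in those labelled uL3Δ. Its main part was KRT8, KRT18 and KRT19 in HCT 116p53-/- libraries, and KRT8 and KRT18 under the uL3Δ label. With vehicle, KRT19 was at 608.5 ± 43.7 and 36.6 ± 1.61 CPM, and EPCAM at 153.5 ± 12.7 and 35.5 ± 2.30 CPM. CDX1 was at 0 in all HCT 116p53-/- libraries and KRT20 at 0 in the Act D-treated libraries labelled uL3Δ. The sum of 8 mesenchymal markers was between 28.1 and 59.8 CPM and between 2258 and 2574 CPM, nearly all of the latter VIM. The sum of 7 leukocyte markers was between 8.39 and 13.5 CPM in HCT 116p53-/- libraries and between 25.3 and 37.1 CPM in those labelled uL3Δ, mostly CD68 and LYZ, with CD3E at 0 in every library, and 3 endothelial markers summed to between 0.758 and 1.97 CPM. The part of these marker differences in the NF-κB gene values was not tested. Genes of one line with almost no level in the other were found in the other at a median of 0.361 to 0.566% of their own line's level in HCT 116p53-/- cells with vehicle (35 genes), 0.950 to 1.07% with Act D, 0.588 to 0.707% in the vehicle-treated libraries labelled uL3Δ (29 genes) and 0.224 to 1.34% with Act D. A member at such a share of its level in the other line cannot be told apart from that background. In these cultures fewer cells that express a gene and less of its RNA per cell cannot be told apart either.

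The κB sites themselves could be read in the promoters. RefSeq start sites (GRCh38.p14, from 250 bases before to 50 bases after the start) were found for 43 of the 50 genes. A κB consensus was present in 17 of the 43 (39.5%), against 10.8% of all 27305 promoters, and the palindromic form GGAANTTCC in 10 (23.3%), against 0.967%. Both strands were searched, and the 2 motifs overlap, so that 8 genes held both and 19 (44.2%) held either, against 11.3% of all promoters. The genes were chosen by name as pathway members and known targets, and these shares describe that choice and are no finding about the cells. The windows below, each of 100 bases upstream of the start and read 5′ to 3′, show the matches in capitals for 8 genes whose levels are described further on, all of them higher in the libraries labelled uL3Δ.
NFKBIA, chr14:35404776-35404875, minus strand: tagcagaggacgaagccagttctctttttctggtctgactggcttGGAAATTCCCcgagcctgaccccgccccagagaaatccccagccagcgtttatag
TNFAIP3, chr6:137867153-137867252, plus strand: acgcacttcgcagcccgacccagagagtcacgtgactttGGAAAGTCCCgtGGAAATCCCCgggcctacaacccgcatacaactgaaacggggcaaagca
BIRC3, chr11:102317272-102317371, plus strand: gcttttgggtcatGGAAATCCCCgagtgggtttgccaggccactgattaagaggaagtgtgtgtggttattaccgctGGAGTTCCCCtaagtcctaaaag
CXCL8, chr4:73740432-73740531, plus strand: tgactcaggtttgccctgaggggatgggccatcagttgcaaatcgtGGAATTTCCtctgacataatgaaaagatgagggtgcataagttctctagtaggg
CCL20, chr2:227813718-227813817, plus strand: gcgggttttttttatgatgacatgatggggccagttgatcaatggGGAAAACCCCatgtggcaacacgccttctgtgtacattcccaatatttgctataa
LTB, chr6:31582457-31582556, minus strand: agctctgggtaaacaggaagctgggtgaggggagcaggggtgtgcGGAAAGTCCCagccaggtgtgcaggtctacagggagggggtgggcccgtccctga
ICAM1, chr19:10270888-10270987, plus strand: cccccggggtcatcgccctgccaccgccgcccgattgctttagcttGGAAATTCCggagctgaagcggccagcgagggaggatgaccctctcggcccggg
CXCL1, chr4:73869269-73869368, plus strand: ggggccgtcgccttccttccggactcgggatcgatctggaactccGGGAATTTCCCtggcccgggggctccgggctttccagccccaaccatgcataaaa

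In CXCL1, CXCL2 and CXCL3 the same letters, GGGAATTTCC, lay within 1 base of the same distance from the start, 79 bases before it in CXCL1 and CXCL3 and 78 bases before it in CXCL2. CXCL8 held GGAATTTCC 91 bases before its start, and ICAM1 held GGAAATTCC 186 bases before its start. NFKBIA held a match at 81 bases before the start. Matches were also present in BCL3 and NFKB1, which did not pass the test between the lines with vehicle, and in CFLAR, which was lower there. RELA, KLF6, PLAUR and PTGS2 held no match, which says only that these letters are not in their windows.

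**Figure D1:**
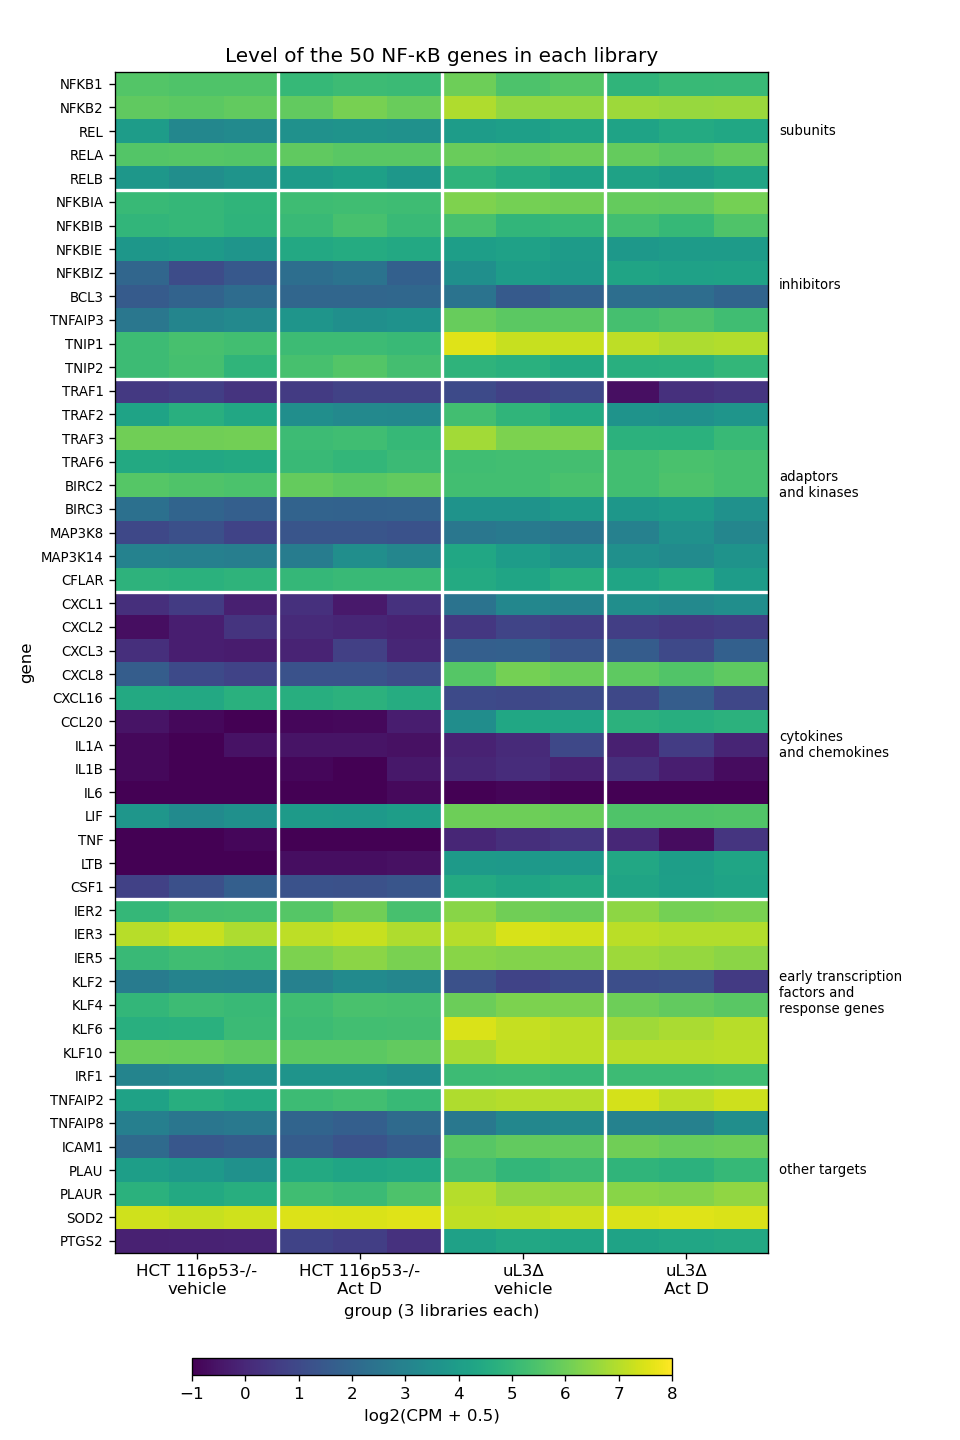
Level of each of the 50 NF-κB genes (rows, by role) in each of the 12 libraries (columns, 3 per group), as log2(CPM + 0.5). SOD2 and IER3 are high in every library, and TNIP1, CXCL8, CCL20, LIF, KLF6, TNFAIP2, ICAM1 and PTGS2 are brighter in the 6 libraries labelled uL3Δ, where CXCL16 and KLF2 are darker.

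Per transcript length, the highest of the 50 genes in HCT 116p53-/- cells with vehicle was IER3, at 91.98 ± 9.12 TPM (a length-scaled abundance; SD, n = 3), followed by SOD2 at 38.2 ± 2.02 TPM, NFKB2 at 25.4 ± 3.94 TPM, NFKBIA at 17.5 ± 1.60 TPM and RELA at 17.3 ± 0.991 TPM. In the vehicle-treated libraries labelled uL3Δ the order was IER3 at 75.5 ± 4.66 TPM, PLAUR at 47.5 ± 15.5 TPM, TNIP1 at 42.8 ± 8.42 TPM, TNFAIP2 at 39.9 ± 1.94 TPM and NFKB2 at 34.1 ± 12.3 TPM. The 4 genes after IER3 in that order did not differ beyond their spread. TPM served only to rank genes within a group.

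The first comparison was between the lines with vehicle. Of the 46 genes tested, 39 differed (84.8%, where 71.3% of all genes tested did). In the libraries labelled uL3Δ 34 were higher and 5 lower, against a background of 35.1% higher and 36.2% lower, so that 73.9% of the NF-κB genes were higher and 10.9% lower. The genes were chosen with earlier results of these data known, and the part of that choice in these shares was not tested. Of these genes, CXCL2, CXCL3, CCL20 and LTB reached the filter only in the libraries labelled uL3Δ so that their direction was fixed by the filter. Among the 42 that reached it in both lines, 30 were higher and 5 lower (71.4% and 11.9%), with a median log2 fold change of 1.02. The median of the 46 was 1.13, also with LTB at its lower bound, against -0.02 over all genes. At least 2-fold, 25 of the 46 were higher and 2 lower, beside 18.3% and 19.4% of all genes tested. The 25 included CXCL2, CXCL3, CCL20 and LTB, whose direction was fixed by the filter. The count of 5 lower genes was 3 without replicate 1 of the HCT 116p53-/- vehicle group and 3 without replicate 2 of the vehicle group labelled uL3Δ. Of the 39 calls, 31 held in each of the 14 alternatives run. Those of REL, RELA, NFKBIE, TRAF2, TRAF3, BIRC2, CFLAR and CXCL2 did not. With Act D 35 genes differed (76.1%, background 70.4%), 28 of them higher and 7 lower (background 35.1% and 35.3%). Among the 42 that reached the filter in both lines, 25 were higher and 7 lower with Act D (59.5% and 16.7%). The median of the 46 was then 0.70 (0.55 over the 42) against -0.02 over all genes. By at least 2-fold, 20 were higher and 3 lower with Act D (background 18.8% and 18.3%). The 20 included CXCL3, CCL20 and LTB, whose direction was fixed by the filter. With scaling by library size alone, where the median of all genes was -0.26 in both line comparisons, the calls were 29 higher and 6 lower with vehicle and 24 higher and 11 lower with Act D. Over all 15692 genes that scaling called 4202 higher and 6974 lower with vehicle, and 4244 higher and 6825 lower with Act D.

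**Figure D2:**
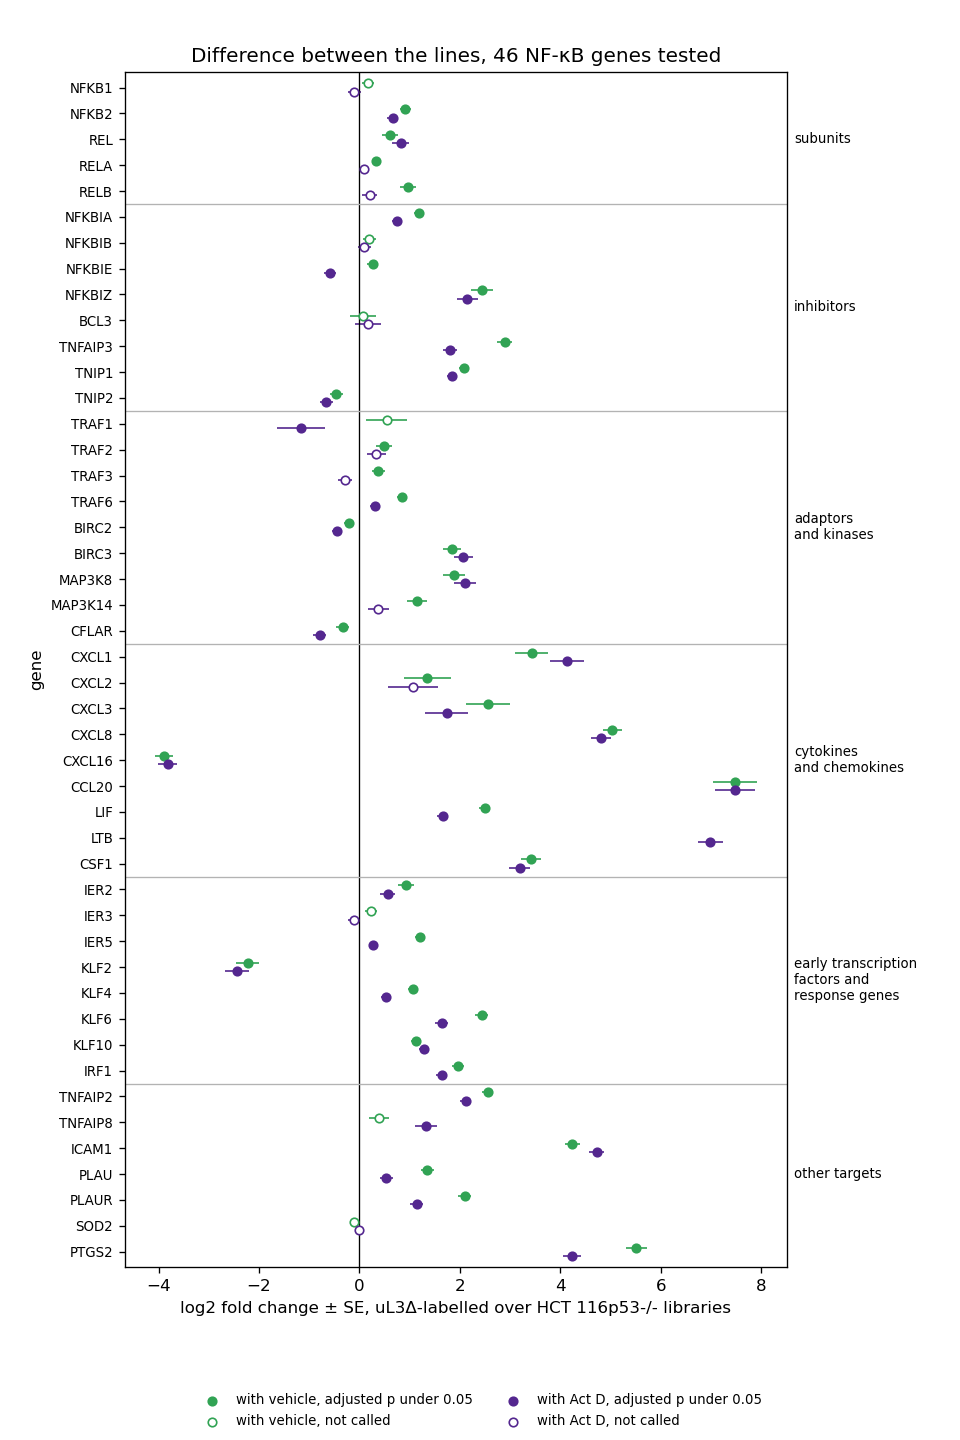
Log2 fold change with its standard error of the 46 genes tested, libraries labelled uL3Δ over HCT 116p53-/- libraries, with vehicle (green) and with Act D (violet); filled points passed an adjusted p under 0.05, and LTB with vehicle is not drawn because it had no count in HCT 116p53-/- cells. Most points lie to the right of 0, CCL20 at 7.47 and CXCL16 at -3.90 being the farthest drawn on each side with vehicle.

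The subunits differed by at most 0.96 on the log2 scale with vehicle. NFKB2, the precursor subunit of the non-canonical pathway, was at 54.8, 52.3 and 56.6 CPM in HCT 116p53-/- cells with vehicle and at 123, 93.3 and 91.8 CPM in the libraries labelled uL3Δ. The groups did not overlap, and the log2 fold change was 0.91 ± 0.11 (SE), adjusted p = 7.22e-07. RELB, its usual partner, was at 13.2, 10.5 and 12.02 CPM and 28.6, 23.3 and 18.2 CPM, all 3 libraries labelled uL3Δ being higher, with a log2 fold change of 0.96 ± 0.15 (SE), adjusted p = 2.06e-05. REL was at 15.2, 8.47 and 9.48 CPM and 15.3, 16.6 and 18.6 CPM, the highest HCT 116p53-/- library falling just short of the lowest one labelled uL3Δ (0.61 ± 0.17 (SE), adjusted p = 0.00376). RELA, the main activating subunit of the canonical pathway, was at 47.6, 49.2 and 48.1 CPM and 61.1, 57.8 and 62.7 CPM, a small difference of 0.33 ± 0.08 (SE), adjusted p = 0.00174. NFKB1, the other canonical subunit, was at 47.96, 44.97 and 45.8 CPM and 63.9, 43.9 and 48.5 CPM, and these groups overlapped (0.17 ± 0.12 (SE), adjusted p = 0.208). With Act D, NFKB2 (0.67 ± 0.11) and REL (0.82 ± 0.17) were still higher, while RELB (0.20 ± 0.16), RELA (0.09 ± 0.08) and NFKB1 (-0.10 ± 0.12) did not pass the test. The differences of REL and RELA with vehicle did not pass with scaling by library size alone.

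Among the inhibitors, 5 of 8 were higher and 1 lower with vehicle. The share called was 75%, near the 71.3% of all genes tested (35.1% higher and 36.2% lower). TNFAIP3, a ubiquitin-editing enzyme that switches the pathway off, was at 5.44, 8.13 and 8.82 CPM in HCT 116p53-/- cells and at 60.1, 52.8 and 53.3 CPM in the libraries labelled uL3Δ, 7.40-fold higher (2.89 ± 0.14 (SE), adjusted p = 3.52e-12). TNIP1, which binds the TNFAIP3 protein, was at 35.8, 40.8 and 38.2 CPM and 187, 151 and 149.5 CPM, 4.25-fold higher (2.09 ± 0.10 (SE), adjusted p = 2.56e-12). All libraries labelled uL3Δ lay far above all HCT 116p53-/- libraries for both genes. TNIP2, a relative of TNIP1, went the other way, at 35.5, 39.8 and 29.2 CPM and 28.5, 25.5 and 21.7 CPM (-0.47 ± 0.13 (SE), adjusted p = 0.00414). NFKBIA, the main IκB and a direct NF-κB target, was at 32.7, 31.1 and 29.1 CPM and 76.2, 68.9 and 66.3 CPM, with no overlap and a log2 fold change of 1.19 ± 0.09 (SE), adjusted p = 2.74e-09. NFKBIZ, a nuclear IκB-like protein that also acts as a co-activator, was at 3.44, 1.65 and 2.29 CPM and 10.6, 15.2 and 14.1 CPM, 5.40-fold higher (2.43 ± 0.22 (SE), adjusted p = 1.96e-08).

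NFKBIE, another IκB, showed a small difference with vehicle, at 13.2, 14.4 and 12.4 CPM and 15.9, 17.3 and 14.7 CPM (0.26 ± 0.11 (SE), adjusted p = 0.0405), which did not pass with DESeq2 (adjusted p = 0.0651) or with scaling by library size alone, the adjusted p being between 0.0275 and 0.863 over the alternatives. The call was also lost with the upper quartile, without a filter, with the replicate number as a block and with only the groups compared. The same held without HCT 116p53-/- vehicle replicate 1 or 3 or uL3Δ-labelled vehicle replicate 1 or 2. With Act D NFKBIE was lower in the libraries labelled uL3Δ, at 21.2, 22.4 and 20.8 CPM in HCT 116p53-/- cells and 13.4, 14.96 and 14.7 CPM (-0.58 ± 0.11 (SE), adjusted p = 0.00016). NFKBIB was at 29.9, 31.3 and 28.2 and 41.2, 30.2 and 31.3 CPM and BCL3, a nuclear IκB family member, at 2.53, 3.17 and 3.98 and 4.82, 2.40 and 3.17 CPM. Neither passed the test in either line comparison. With Act D the other inhibitors kept their calls, with log2 fold changes of 1.81 ± 0.14 for TNFAIP3, 1.84 ± 0.10 for TNIP1, -0.66 ± 0.13 for TNIP2, 0.74 ± 0.09 for NFKBIA and 2.15 ± 0.21 for NFKBIZ.

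Of the 9 adaptors and kinases, 6 were higher and 2 lower with vehicle. The share called was 88.9%, beside 71.3% of all genes tested (35.1% higher and 36.2% lower). BIRC3, an inducible cIAP ubiquitin ligase and itself a target, was at 4.54, 3.24 and 2.84 CPM in HCT 116p53-/- cells and at 11.97, 11.8 and 14.4 CPM in the libraries labelled uL3Δ, 3.59-fold higher (1.84 ± 0.18 (SE), adjusted p = 3.85e-08). Its neighbour on chromosome 11 and close relative BIRC2 was at 49, 45.04 and 42.8 CPM and 37.8, 38.1 and 42.2 CPM. BIRC2 was thus slightly lower (-0.21 ± 0.09 (SE), adjusted p = 0.0471), but the difference did not pass with DESeq2 (adjusted p = 0.0667, between 0.000276 and 0.184 over the alternatives). It was also lost without a filter, with the replicate number as a block, with only the groups compared and with the background share subtracted. The same held without vehicle replicate 1 or 2 of either line. MAP3K8, a kinase upstream of ERK, was at 1.43, 1.79 and 1.27 CPM and 5.38, 5.80 and 5.33 CPM, 3.69-fold higher (1.88 ± 0.23 (SE), adjusted p = 6.54e-07). MAP3K14, the kinase that starts the non-canonical pathway, was at 7.39, 7.02 and 6.70 CPM and 20, 15.4 and 11.4 CPM (1.14 ± 0.20 (SE), adjusted p = 4.47e-05). TRAF6, the adaptor of interleukin-1 and Toll-like receptors, was at 21.7, 20.6 and 21.6 CPM and 37.03, 38.2 and 39.1 CPM in tight groups that did not overlap (0.84 ± 0.09 (SE), adjusted p = 1.67e-07). CFLAR, which blocks death receptor signalling, was lower, at 22.01, 19.01 and 24.4 CPM in the libraries labelled uL3Δ against 27.6, 26.2 and 28.3 CPM (-0.33 ± 0.13 (SE), adjusted p = 0.0261). This call was lost without replicate 1 or 3 of the HCT 116p53-/- vehicle group or replicate 2 of the vehicle group labelled uL3Δ (adjusted p between 0.000908 and 0.138 over the alternatives).

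TRAF2 and TRAF3, adaptors of the tumour necrosis factor receptor family that together with the cIAPs hold MAP3K14 low, differed less between the lines. TRAF2 was at 18.1, 25.1 and 20.4 CPM in HCT 116p53-/- cells with vehicle and 38.1, 29.02 and 22.1 CPM in the libraries labelled uL3Δ, where the ranges overlapped (0.49 ± 0.16 (SE), adjusted p = 0.0119). TRAF3 was at 65.5, 65.8 and 66.9 CPM and 108, 73.5 and 76.03 CPM (0.38 ± 0.12 (SE), adjusted p = 0.0108), replicate 1 of the latter being well above the other two. Neither call held with scaling by library size alone or without that replicate 1, and neither gene passed with Act D. The call of TRAF2 with vehicle was also lost without HCT 116p53-/- vehicle replicate 1. TRAF1 was near 1 CPM in most libraries and passed only with Act D (-1.16 ± 0.48 (SE), adjusted p = 0.0391). This call was lost with DESeq2, without a filter, with the replicate number as a block and with only the groups compared. It was also lost without any 1 Act D library of HCT 116p53-/- cells or without uL3Δ-labelled Act D replicate 1. The adjusted p was between 0.0126 and 0.253 over the alternatives. With Act D, BIRC3 (2.07 ± 0.18), MAP3K8 (2.11 ± 0.22) and TRAF6 (0.30 ± 0.09) remained higher and BIRC2 (-0.46 ± 0.09) and CFLAR (-0.79 ± 0.13) lower, while MAP3K14 (0.38 ± 0.20) did not pass. The difference of TRAF6 with Act D did not pass with scaling by library size alone, where it was 0.06, or without a filter (adjusted p between 0.00563 and 0.613 over the alternatives).

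Of the 13 cytokines and chemokines, 5 reached the filter in both lines. With vehicle CXCL1, CXCL8, LIF and CSF1 were higher and CXCL16 lower (80% and 20%, beside 35.1% and 36.2% of all genes tested). CXCL2, CXCL3, CCL20 and LTB reached it only in the libraries labelled uL3Δ, and 4 genes were not tested. CXCL8, a neutrophil attractant (Ensembl ENSG00000169429, hg38 chr4:73740519-73743716), was at 2.66, 1.51 and 1.27 CPM in HCT 116p53-/- cells and at 48.9, 68.5 and 61.04 CPM in the libraries labelled uL3Δ. It was 32.8-fold higher with vehicle (5.04 ± 0.19 (SE), adjusted p = 1.18e-13) and 28.1-fold higher with Act D (4.81 ± 0.20 (SE), adjusted p = 3.7e-13), where it was at 1.93, 1.89 and 1.61 and 53.9, 46.9 and 53.5 CPM. CXCL1, a related attractant on the same chromosome, was at 0.648, 0.964 and 0.362 CPM and 4.82, 8.56 and 7.63 CPM (3.43 ± 0.32 (SE), adjusted p = 3.08e-08). CXCL3 was at 0.648, 0.344 and 0.302 CPM and 2.81, 2.85 and 2.09 CPM (2.56 ± 0.43 (SE), adjusted p = 3.95e-05), and CXCL2 at 0.130, 0.344 and 0.785 CPM and 0.884, 1.30 and 1.08 CPM (1.35 ± 0.47 (SE), adjusted p = 0.0168). The call of CXCL2 was lost without HCT 116p53-/- vehicle replicate 1 or 2 or uL3Δ-labelled vehicle replicate 2 (adjusted p between 0.00188 and 0.0873). CXCL1, CXCL2 and CXCL3 are close paralogues, but RSEM's posterior SD of their counts was 0 in the files. With Act D, CXCL1 (4.14 ± 0.34) and CXCL3 (1.73 ± 0.42) were higher and CXCL2 (1.07 ± 0.50) did not pass.

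CCL20, which attracts dendritic cells and lymphocytes to epithelia (ENSG00000115009, chr2:227805739-227817564), had 3, 1 and 0 counts in the 3 HCT 116p53-/- libraries with vehicle and 127, 405 and 292 counts in those labelled uL3Δ. In CPM this was 0.194, 0.0689 and 0 against 10.2, 20.3 and 19.7 with vehicle and 0.0623, 0.0676 and 0.322 against 26.98, 24.6 and 27.4 with Act D, with log2 fold changes of 7.47 ± 0.44 (SE), adjusted p = 5.05e-11, and 7.48 ± 0.41 (SE), adjusted p = 1.95e-11. LTB, lymphotoxin beta, which signals through the non-canonical pathway (ENSG00000227507, chr6:31580525-31582522), had no count in any HCT 116p53-/- library with vehicle and was at 14.5, 13.8 and 14.2 CPM in those labelled uL3Δ. Against a floor of 3 counts in a library it was at least 68.5-fold higher, a bound that covers counting error only. With Act D, LTB was at 2, 2 and 2 counts in HCT 116p53-/- cells, or 0.125, 0.135 and 0.161 CPM, and at 20.7, 16.1 and 19.1 CPM in the libraries labelled uL3Δ. The level of CCL20 in HCT 116p53-/- cells amounted to 0.525% of the level under the uL3Δ label with vehicle and 0.572% with Act D, and that of LTB was 0.752% with Act D, within or below the background share between the lines, so that expression of either gene above that background was not detectable in HCT 116p53-/- cells.

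LIF, a cytokine of the interleukin-6 family, was at 12.6, 9.50 and 10.99 CPM in HCT 116p53-/- cells with vehicle and at 63.6, 64.2 and 58.9 CPM in the libraries labelled uL3Δ, 5.62-fold higher (2.49 ± 0.11 (SE), adjusted p = 6.34e-13). CSF1, the macrophage growth factor, was at 1.17, 1.79 and 2.84 CPM and 22.2, 19.2 and 21.4 CPM, 10.7-fold higher (3.42 ± 0.20 (SE), adjusted p = 3.61e-11). With Act D the log2 fold changes were 1.66 ± 0.11 for LIF and 3.19 ± 0.20 for CSF1. CXCL16, a membrane-bound chemokine, was the exception. It was at 21.6, 21.1 and 25.7 CPM in HCT 116p53-/- cells and at 1.53, 1.45 and 1.62 CPM in the libraries labelled uL3Δ, 14.9-fold lower with vehicle (-3.90 ± 0.18 (SE), adjusted p = 1.29e-12) and 14.1-fold lower with Act D (-3.81 ± 0.19 (SE), adjusted p = 4.48e-12). The best-known NF-κB cytokines were hardly present. IL6 had 1 count in each of 2 of the 12 libraries. TNF had 0, 0 and 1 counts in HCT 116p53-/- libraries with vehicle and 6, 13 and 12 in those labelled uL3Δ, and with Act D 0, 0 and 0 and 7, 1 and 7. IL1A had 1, 0 and 3 and 5, 11 and 21 counts with vehicle, and IL1B 1, 0 and 0 and 6, 12 and 6.

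**Figure D3:**
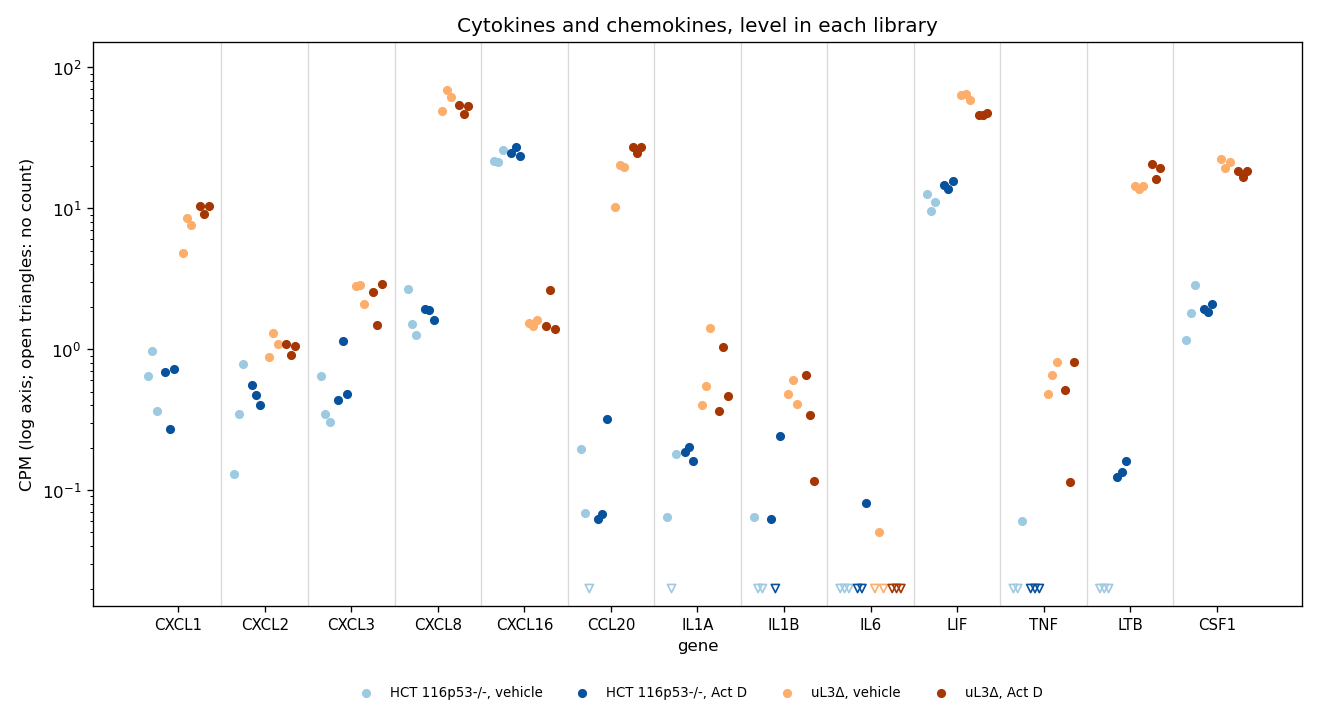
Level in CPM (log axis) of the 13 cytokine and chemokine genes in each of the 12 libraries, coloured by group; open triangles at the bottom mark libraries with no count. CXCL8, CCL20, LIF, LTB and CSF1 lie higher in all 6 libraries labelled uL3Δ, CXCL16 lies lower in them, and IL6 is absent or at 1 count everywhere.

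Among the early transcription factors and response genes, 6 of 8 were higher and 1 lower with vehicle. The share called was 87.5%, beside 71.3% of all genes tested (35.1% higher and 36.2% lower). KLF6, a zinc finger factor induced by many stresses, was at 25.1, 25.9 and 34.8 CPM in HCT 116p53-/- cells and at 181, 148 and 135 CPM in the libraries labelled uL3Δ, 5.39-fold higher (2.43 ± 0.13 (SE), adjusted p = 1.52e-11). KLF2, a factor known for restraining NF-κB in endothelium, was lower, at 6.22, 7.64 and 7.49 CPM in HCT 116p53-/- cells and 1.85, 1.25 and 1.55 CPM (-2.22 ± 0.23 (SE), adjusted p = 1e-07). Every library labelled uL3Δ was below every HCT 116p53-/- library for KLF2, and the reverse held for KLF6. IRF1, a factor shared with the interferon response, was at 7.84, 8.61 and 10.6 CPM and 35.8, 36.4 and 33.8 CPM (1.97 ± 0.12 (SE), adjusted p = 5.16e-11). KLF10 was at 61.4, 59.9 and 55.7 CPM and 111, 141 and 133 CPM (1.12 ± 0.09 (SE), adjusted p = 2.8e-09). KLF4 was at 30.9, 35.7 and 33.9 CPM and 62.6, 73.8 and 73.5 CPM (1.07 ± 0.10 (SE), adjusted p = 3.7e-08). IER5 was at 33.4, 37.1 and 35.1 CPM and 84.1, 79.6 and 80.1 CPM (1.21 ± 0.09 (SE), adjusted p = 1.7e-09), and IER2 at 31.6, 39.3 and 39.97 CPM and 84.1, 65.2 and 61.04 CPM (0.92 ± 0.16 (SE), adjusted p = 4.31e-05). IER3, the highest of the set, overlapped between the lines at 130.0, 151 and 117 CPM and 128, 177 and 161 CPM (0.23 ± 0.12 (SE), adjusted p = 0.0837).

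With Act D the same 7 genes passed the test in the same direction, with log2 fold changes of 1.63 ± 0.13 for KLF6, -2.43 ± 0.24 for KLF2, 1.64 ± 0.12 for IRF1, 1.28 ± 0.09 for KLF10, 0.53 ± 0.10 for KLF4, 0.56 ± 0.16 for IER2 and 0.28 ± 0.09 for IER5. The differences of IER2 and IER5 with Act D did not pass with scaling by library size alone. Of all genes tested, 70.4% were called between the lines with Act D.

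The other targets included the adhesion molecule ICAM1, at 3.82, 2.20 and 2.60 CPM in HCT 116p53-/- cells with vehicle and 50.3, 56.5 and 56.9 CPM in the libraries labelled uL3Δ. It was 18.9-fold higher with vehicle (4.24 ± 0.15 (SE), adjusted p = 3.97e-14) and 26.4-fold higher with Act D (4.72 ± 0.16 (SE), adjusted p = 2.7e-14). PTGS2, the inducible cyclooxygenase (ENSG00000073756, chr1:186671791-186680922), was at 0.389, 0.413 and 0.423 CPM and 17.1, 20.6 and 19.2 CPM, 45.6-fold higher (5.51 ± 0.21 (SE), adjusted p = 9.93e-14). PLAUR, the urokinase receptor, was at 26.5, 21.7 and 24.7 CPM and 128, 94.2 and 91.3 CPM (2.10 ± 0.13 (SE), adjusted p = 1.07e-10), and its ligand PLAU, urokinase, at 16.01, 13.6 and 11.3 CPM and 39.5, 30.97 and 34.2 CPM (1.35 ± 0.13 (SE), adjusted p = 3.6e-08). TNFAIP2, a target induced by tumour necrosis factor, was at 17.9, 24.4 and 22.2 CPM and 121, 129 and 128 CPM (2.55 ± 0.11 (SE), adjusted p = 8.8e-13). In contrast, SOD2, the mitochondrial superoxide dismutase and a textbook NF-κB target, overlapped between the lines at 161, 152 and 162 CPM and 139.5, 145 and 157 CPM (-0.11 ± 0.07 (SE), adjusted p = 0.206). TNFAIP8 was at 6.81, 5.23 and 5.74 and 5.54, 8.56 and 8.98 CPM and passed only with Act D (1.33 ± 0.22 (SE), adjusted p = 3.63e-05).

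The second question was how Act D changed these genes within each line. In HCT 116p53-/- cells, 13 of the 46 genes rose and 4 fell, 28.3% and 8.7%, where 7.59% of all genes tested rose and 11.1% fell. The median log2 fold change was 0.26, against 0.02 over all genes. By at least 2-fold, 3 rose and 1 fell, beside 1.23% and 1.66% of all genes. Those that rose were NFKBIE, TNFAIP3, TRAF6, BIRC2, LIF, LTB, IER2, IER5, KLF6, TNFAIP2, PLAU, PLAUR and PTGS2, and those that fell were NFKB1, TRAF2, TRAF3 and TNFAIP8. In the libraries labelled uL3Δ, 2 rose and 7 fell, 4.35% and 15.2%, where 3.51% of all genes rose and 8.4% fell, and the median was -0.02 against 0.03. MAP3K8 and SOD2 rose, and NFKB1, TNFAIP3, TNIP1, TRAF2, TRAF3, LIF and KLF6 fell. The split depended on scaling here, with 0 higher and 11 lower with library size alone and 6 higher and 5 lower with the upper quartile. Over all 15692 genes, library size alone called 227 higher and 1858 lower, and the upper quartile 944 higher and 1012 lower. The count of 2 genes that rose in the libraries labelled uL3Δ was 1 without vehicle replicate 1 or 3 or Act D replicate 2 or 3. The genes counted changed as well. Without vehicle replicate 2 CCL20 was called in place of MAP3K8, and without Act D replicate 2 the 1 gene was TNFAIP2. The count of 13 that rose in HCT 116p53-/- cells was 8 without replicate 2 of the vehicle group and 8 without replicate 1 of the Act D group.

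**Figure D4:**
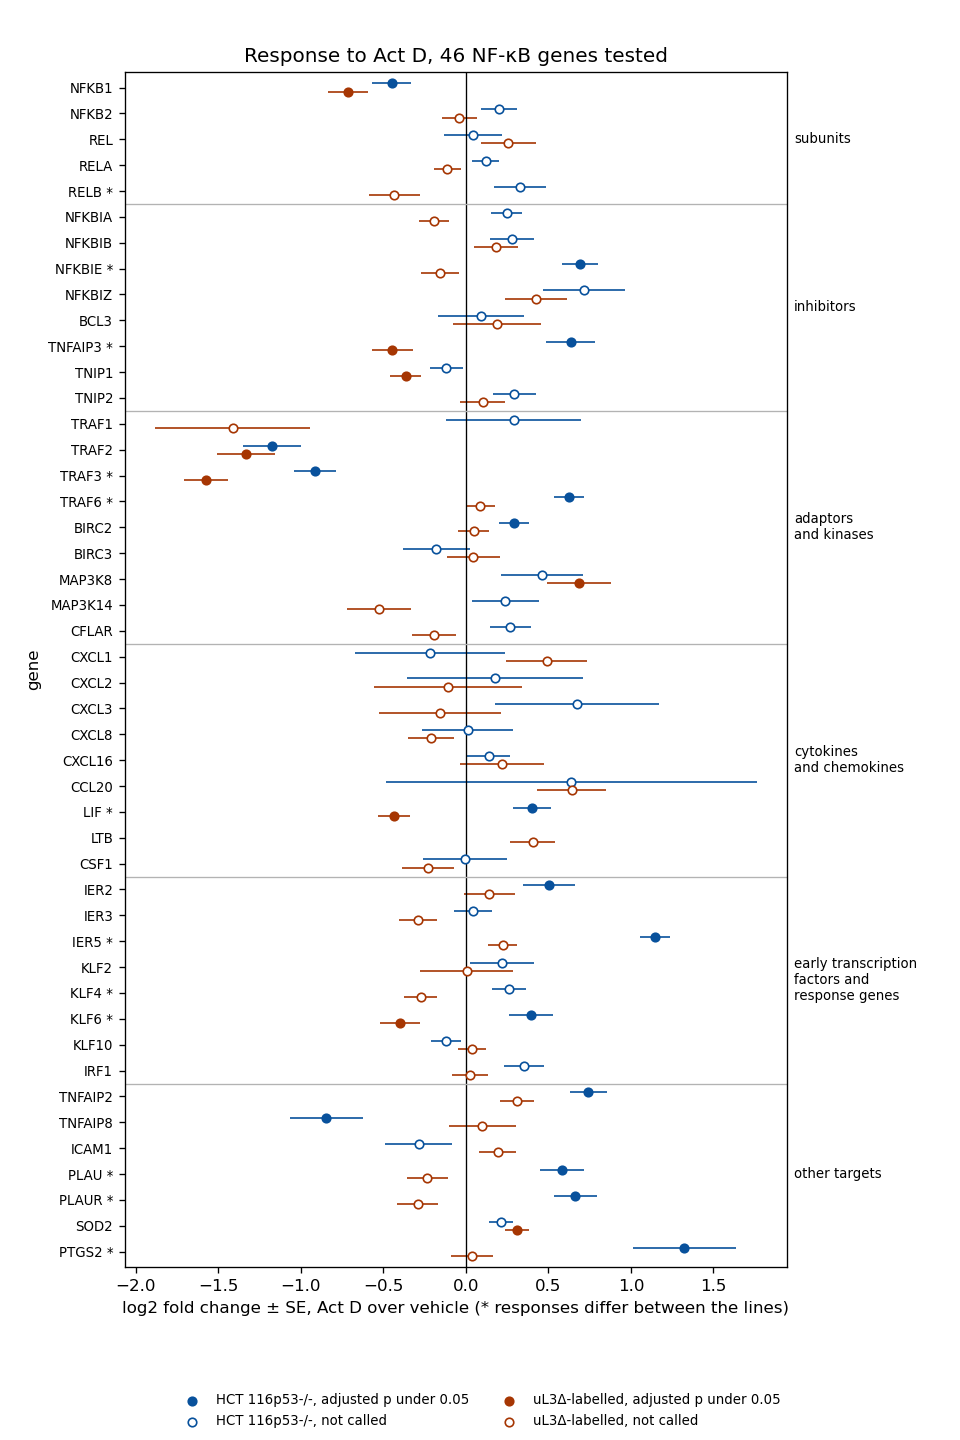
Log2 fold change with its standard error of the 46 genes tested, Act D over vehicle, in HCT 116p53-/- libraries (blue) and in those labelled uL3Δ (brown); filled points passed an adjusted p under 0.05, asterisks mark the 12 genes whose responses differed, and LTB in HCT 116p53-/- cells is not drawn because it had no count with vehicle. For each of the 12 the brown point lies to the left of the blue one.

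NFKB1, TRAF2 and TRAF3 fell in both lines. TRAF3 went from 65.5, 65.8 and 66.9 to 35.4, 37.3 and 32.3 CPM in HCT 116p53-/- cells (-0.91 ± 0.13 (SE), adjusted p = 7.17e-05) and from 108, 73.5 and 76.03 to 27.4, 26.5 and 32.7 CPM in the libraries labelled uL3Δ (-1.58 ± 0.13 (SE), adjusted p = 1.97e-06). TRAF2 went from 18.1, 25.1 and 20.4 to 10.5, 8.93 and 8.61 CPM (-1.18 ± 0.17 (SE), adjusted p = 0.000132) and from 38.1, 29.02 and 22.1 to 11.9, 10.96 and 12.4 CPM (-1.33 ± 0.17 (SE), adjusted p = 8.35e-05). NFKB1 went from 47.96, 44.97 and 45.8 to 31.8, 35.2 and 34.7 CPM (-0.45 ± 0.12 (SE), adjusted p = 0.0125) and from 63.9, 43.9 and 48.5 to 28.9, 32.8 and 33.5 CPM (-0.71 ± 0.12 (SE), adjusted p = 0.000704). Its fall in HCT 116p53-/- cells was lost without Act D replicate 1 (adjusted p between 0.00144 and 0.0681 over the alternatives). In all 3 genes no Act D library reached the lowest vehicle library of its line. The other subunits did not pass the test in either line, with log2 fold changes between 0.04 (REL) and 0.33 (RELB) in HCT 116p53-/- cells and between -0.43 (RELB) and 0.26 (REL) in the libraries labelled uL3Δ.

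The largest rise in HCT 116p53-/- cells among genes above 10 CPM was that of IER5, an early response gene, from 33.4, 37.1 and 35.1 CPM to 75.1, 86.4 and 72.7 CPM, 2.22-fold (1.15 ± 0.09 (SE), adjusted p = 2.6e-07). TNFAIP2 rose from 17.9, 24.4 and 22.2 to 35.9, 38.5 and 33.3 CPM (0.74 ± 0.11 (SE), adjusted p = 0.000166), and IER2 from 31.6, 39.3 and 39.97 to 49.1, 66.4 and 41.6 CPM (0.50 ± 0.16 (SE), adjusted p = 0.0328). BIRC2 rose from 49, 45.04 and 42.8 to 57.6, 52.6 and 57.4 CPM, a small change (0.29 ± 0.09 (SE), adjusted p = 0.0308). Neither of the last 2 calls held with scaling by library size alone, that of BIRC2 was also lost with the replicate block and without a filter, and each was lost with any 1 of 4 libraries left out. Those libraries were vehicle replicates 2 and 3 and Act D replicates 1 and 3 for BIRC2, and replicates 1 and 2 of both groups for IER2. The adjusted p was between 0.0182 and 0.177 over the alternatives for BIRC2 and between 0.000177 and 0.224 for IER2. TNFAIP8, an inhibitor of apoptosis, fell from 6.81, 5.23 and 5.74 to 3.24, 2.84 and 3.86 CPM (-0.84 ± 0.22 (SE), adjusted p = 0.0119). This call was lost without vehicle replicate 1 or Act D replicate 2 (adjusted p between 0.00159 and 0.0617). LTB was called because it went from 0 counts to 2 in each library, at the background share described above, and with that share subtracted it had no change. In the libraries labelled uL3Δ, MAP3K8 rose from 5.38, 5.80 and 5.33 to 7.27, 11.2 and 8.35 CPM (0.69 ± 0.20 (SE), adjusted p = 0.0289) and SOD2 from 139.5, 145 and 157 to 178, 189.8 and 179 CPM (0.31 ± 0.07 (SE), adjusted p = 0.0103), while TNIP1 fell from 187, 151 and 149.5 to 136, 117 and 124 CPM (-0.37 ± 0.09 (SE), adjusted p = 0.0159). The rise of MAP3K8 was lost with library size alone and without a filter. It was also lost without any 1 vehicle library or Act D replicate 2 or 3 (adjusted p between 0.0181 and 0.167). The rise of SOD2 was lost with library size alone, without a filter, with only the groups compared and without Act D replicate 2 (up to 0.127). The fall of TNIP1 was lost without vehicle replicate 1 or Act D replicate 2 (up to 0.074). SOD2 in HCT 116p53-/- cells went from 161, 152 and 162 to 183, 181 and 186 CPM, with an adjusted p of 0.0544. Of the genes with a wide line difference, CXCL8 changed by 0.01 ± 0.28 in HCT 116p53-/- cells and -0.21 ± 0.14 in the libraries labelled uL3Δ, ICAM1 by -0.29 ± 0.20 and 0.19 ± 0.11, and CSF1 by 0.00 ± 0.25 and -0.23 ± 0.16, none of which passed.

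The third comparison was the difference between the 2 responses, the interaction of line and treatment. It was called for 12 of the 46 genes, all with a lower response in the libraries labelled uL3Δ (26.1%), where the responses of 6.53% of all genes tested differed, 3.23% with a lower and 3.3% with a higher one. The count of NF-κB genes with a higher response was 0 by edgeR's quasi-likelihood test, 1 at an unadjusted p under 0.05, and 0 by DESeq2. The median log2 difference over the 46 was -0.29, against -0.01 over all genes, and 35 of the 46 were negative, against 50.8% of all genes. Of the 12, 9 rose with Act D in HCT 116p53-/- cells, 1 fell in both lines and 2 passed in neither, and 4 fell in the libraries labelled uL3Δ. Since the 2 responses start from different levels, all 12 genes being called higher with vehicle in the libraries labelled uL3Δ, the part of the starting level in these differences was not tested.

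**Figure D5:**
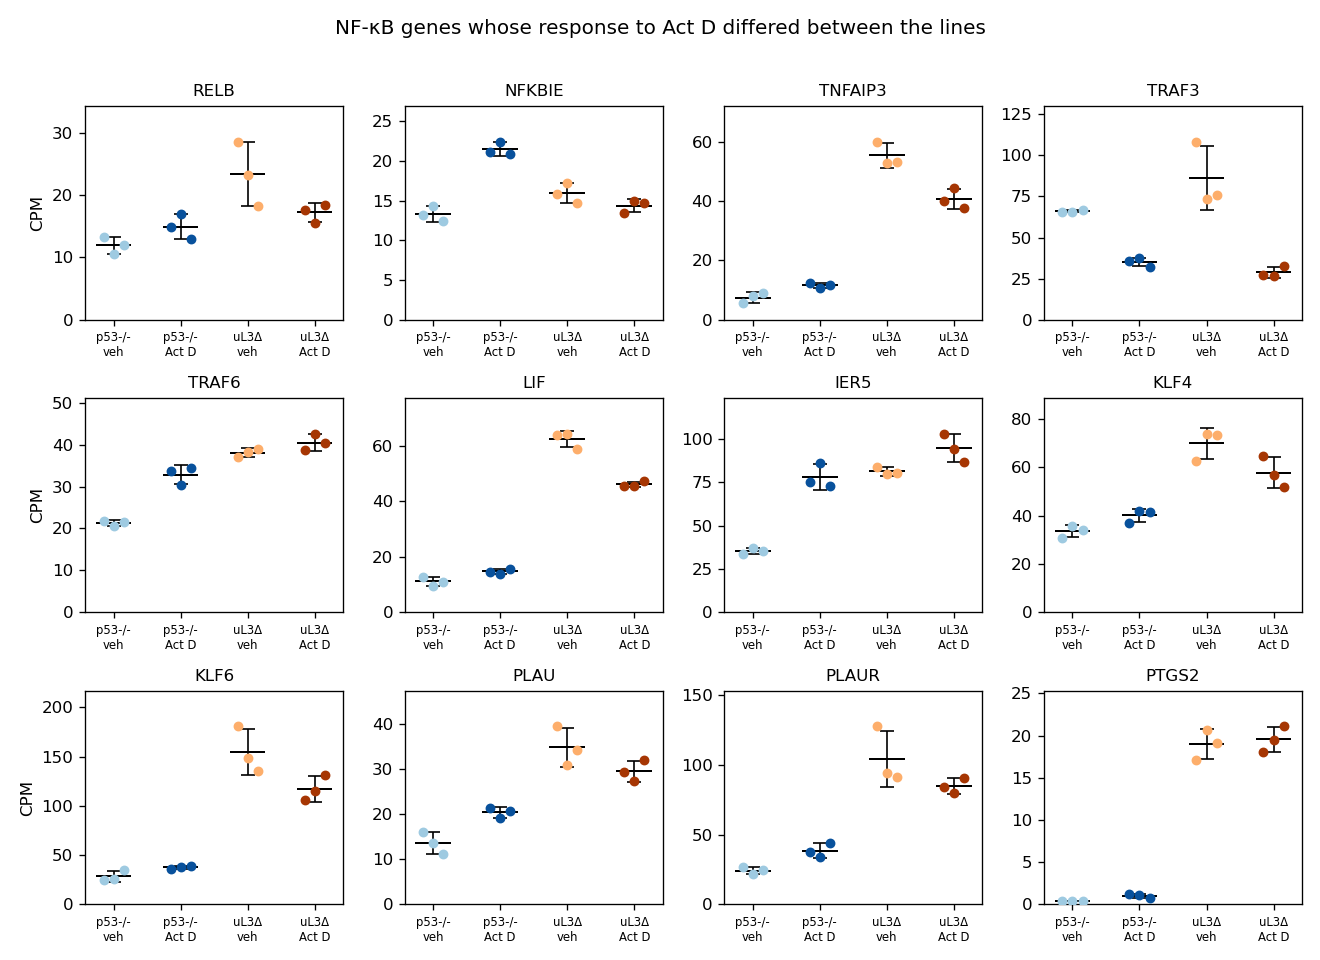
CPM in each library (points) with the group mean and SD (bars, n = 3) for the 12 NF-κB genes whose responses to Act D differed between the lines. TNFAIP3, LIF and KLF6 rise from the first to the second group and fall from the third to the fourth, IER5, PLAUR, PLAU and NFKBIE rise from the first to the second group, and TRAF3 falls in both lines.

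TNFAIP3, LIF and KLF6 moved in opposite directions, rising in HCT 116p53-/- cells and falling in the libraries labelled uL3Δ. TNFAIP3 went from 5.44, 8.13 and 8.82 to 12.5, 10.7 and 11.7 CPM (0.64 ± 0.15 (SE), adjusted p = 0.00636) and from 60.1, 52.8 and 53.3 to 40, 44.3 and 37.7 CPM (-0.45 ± 0.12 (SE), adjusted p = 0.0258), a difference of -1.08 ± 0.20 (SE), adjusted p = 0.00314. LIF went from 12.6, 9.50 and 10.99 to 14.6, 13.6 and 15.7 CPM (0.40 ± 0.11 (SE), adjusted p = 0.0192) and from 63.6, 64.2 and 58.9 to 45.5, 45.6 and 47.1 CPM (-0.43 ± 0.10 (SE), adjusted p = 0.0067), a difference of -0.83 ± 0.15 (SE), adjusted p = 0.00294. KLF6 went from 25.1, 25.9 and 34.8 to 35.9, 38.1 and 39.2 CPM (0.40 ± 0.13 (SE), adjusted p = 0.0448) and from 181, 148 and 135 to 106, 115 and 131 CPM (-0.40 ± 0.12 (SE), adjusted p = 0.042), a difference of -0.80 ± 0.18 (SE), adjusted p = 0.0132. In each gene the Act D and vehicle libraries did not overlap within either line. Not all of the changes within a line held in the alternatives. The fall of LIF and the rise of TNFAIP3 passed in all 14, but the rise of LIF was lost with scaling by library size alone and without vehicle replicate 2 or 3 or Act D replicate 1 or 3 (adjusted p between 0.00823 and 0.119). The fall of TNFAIP3 was lost with the upper quartile and without vehicle replicate 1 or Act D replicate 1 or 3 (adjusted p between 0.00143 and 0.079). The rise of KLF6 was lost with library size alone, with the replicate block and without any 1 library but vehicle replicate 3 (adjusted p between 0.00722 and 0.175), and its fall with the upper quartile, with the block and without vehicle replicate 1 or 2 or Act D replicate 1 or 2 (adjusted p between 0.000512 and 0.174). All 3 were still higher in the libraries labelled uL3Δ after Act D, so the gap between the lines narrowed but stayed.

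In 6 further genes a rise was called in HCT 116p53-/- cells and no change in the libraries labelled uL3Δ. IER5 went from 84.1, 79.6 and 80.1 to 103, 93.99 and 86.8 CPM in the libraries labelled uL3Δ (0.22 ± 0.09 (SE), adjusted p = 0.121), so that its responses differed by -0.93 ± 0.13 (SE), adjusted p = 0.000478. PLAUR rose from 26.5, 21.7 and 24.7 to 37.3, 34.3 and 44.2 CPM (0.66 ± 0.13 (SE), adjusted p = 0.00174) and went from 128, 94.2 and 91.3 to 84.5, 79.7 and 90.9 CPM in the libraries labelled uL3Δ (-0.29 ± 0.12), a difference of -0.96 ± 0.18 (SE), adjusted p = 0.00412. Its ligand PLAU rose from 16.01, 13.6 and 11.3 to 21.4, 19.1 and 20.7 CPM (0.58 ± 0.13 (SE), adjusted p = 0.00472) and went from 39.5, 30.97 and 34.2 to 29.4, 27.3 and 32 CPM (-0.23 ± 0.12), a difference of -0.82 ± 0.18 (SE), adjusted p = 0.0118. NFKBIE rose from 13.2, 14.4 and 12.4 to 21.2, 22.4 and 20.8 CPM (0.69 ± 0.11 (SE), adjusted p = 0.000228) and went from 15.9, 17.3 and 14.7 to 13.4, 14.96 and 14.7 CPM (-0.16 ± 0.11), a difference of -0.85 ± 0.16 (SE), adjusted p = 0.00369. TRAF6 rose from 21.7, 20.6 and 21.6 to 33.8, 30.3 and 34.5 CPM (0.62 ± 0.09 (SE), adjusted p = 0.000103) and went from 37.03, 38.2 and 39.1 to 38.7, 42.6 and 40.4 CPM (0.09 ± 0.09), a difference of -0.54 ± 0.13 (SE), adjusted p = 0.0164. IER5 and TRAF6 of HCT 116p53-/- cells thus came near the level of the libraries labelled uL3Δ after Act D.

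PTGS2 rose from 0.389, 0.413 and 0.423 to 1.25, 1.08 and 0.724 CPM in HCT 116p53-/- cells (1.32 ± 0.31 (SE), adjusted p = 0.00626) and was at 17.1, 20.6 and 19.2 and 18.1, 19.5 and 21.1 CPM in the libraries labelled uL3Δ (0.04 ± 0.13), a difference of -1.28 ± 0.34 (SE), adjusted p = 0.0297. Its rise in HCT 116p53-/- cells was lost without Act D replicate 1 (adjusted p between 0.00414 and 0.0601 over the alternatives). The level of PTGS2 in HCT 116p53-/- cells amounted to 2.15% of the level under the uL3Δ label with vehicle and 5.19% with Act D, while the background share between the lines went from 0.361 to 0.566% to 0.950 to 1.07%. With that share subtracted, the difference had an adjusted p of 0.0546, and over all alternatives it was between 0.0195 and 0.117. The last 3 genes had no rise: TRAF3 fell further in the libraries labelled uL3Δ (-0.66 ± 0.18 (SE), adjusted p = 0.0365), and RELB (-0.76 ± 0.22 (SE), adjusted p = 0.046) and KLF4 (-0.54 ± 0.14 (SE), adjusted p = 0.0332) passed in neither line. RELB went from 13.2, 10.5 and 12.02 to 14.9, 16.97 and 12.9 CPM and from 28.6, 23.3 and 18.2 to 17.7, 15.5 and 18.4 CPM, and KLF4 from 30.9, 35.7 and 33.9 to 36.9, 42.1 and 41.4 CPM and from 62.6, 73.8 and 73.5 to 64.6, 56.8 and 51.9 CPM. NFKBIE, TNFAIP3, LIF, IER5, KLF6, PLAU and PLAUR passed in every alternative that was run, and RELB, TRAF3, TRAF6, KLF4 and PTGS2 failed in at least 1.

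A list of 55 other pathway components, receptors, kinases and ubiquitin enzymes that are not among the 50 genes, was counted beside them. This list too was chosen with earlier results of these data known. Of the 50 components tested, the libraries labelled uL3Δ had 18 at a higher and 20 at a lower level with vehicle, 36% and 40%, and the median log2 fold change was -0.10. These shares were near those of all genes tested, 35.1% higher and 36.2% lower, with a median of -0.02. Of these components, 2 reached the filter only in the libraries labelled uL3Δ and 3 only in HCT 116p53-/- libraries, which fixed their direction. The receptors differed in both directions. TLR4, the receptor for bacterial lipopolysaccharide, was at 0.259, 0.0689 and 0.181 CPM in HCT 116p53-/- cells and 36.1, 43.1 and 43.5 CPM in the libraries labelled uL3Δ, and TNFRSF1B, a receptor of tumour necrosis factor, at 0.324, 0.344 and 0.302 CPM and 29.8, 25.9 and 27.01 CPM. CD40 was at 8.10, 10.6 and 7.55 and 0.161, 0.150 and 0.135 CPM and IL1R1, the interleukin-1 receptor, at 7.32, 8.20 and 8.76 and 0.241, 0 and 0.0675 CPM. The lower line held 0.415% of the other's level for TLR4, 1.17% for TNFRSF1B, 1.7% for CD40 and 1.27% for IL1R1, to be read beside the background shares given above. IRAK2, a kinase of the interleukin-1 and Toll-like receptor branch, was at 2.72, 2.62 and 1.75 and 89.9, 88.5 and 78.1 CPM (5.18 ± 0.14 (SE), adjusted p = 1.27e-15).

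With Act D 14 of these components were higher and 22 lower between the lines, 28% and 44%, beside 35.1% and 35.3% of all genes tested. Act D raised 5 and lowered 2 of them in HCT 116p53-/- cells, 10% and 4%, beside 7.59% and 11.1% of all genes, with IRAK2 (1.07 ± 0.17 (SE), adjusted p = 0.000203), CYLD (0.56 ± 0.11 (SE), adjusted p = 0.00152) and TRAF4 (0.43 ± 0.11 (SE), adjusted p = 0.0115) rising at the smallest adjusted p and BTRC (-0.63 ± 0.11 (SE), adjusted p = 0.000622) and RNF31 (-0.67 ± 0.13 (SE), adjusted p = 0.00142) falling. In the libraries labelled uL3Δ 7 fell (14%, beside 8.4% of all genes), among them CHUK, a catalytic subunit of the IκB kinase (-0.51 ± 0.09 (SE), adjusted p = 0.000663), TNFRSF12A (-0.68 ± 0.12 (SE), adjusted p = 0.00145) and OTULIN (-0.62 ± 0.12 (SE), adjusted p = 0.00163), and the count that rose was 0 by edgeR, 3 at an unadjusted p under 0.05 and 0 by DESeq2. The 2 responses differed for 4 components (8%, beside 6.53% of all genes), all lower in the libraries labelled uL3Δ (3.23% of all genes), and 0 were higher by edgeR, 2 at an unadjusted p under 0.05 and 2 by DESeq2. IRAK2 was among the 4, with a rise in HCT 116p53-/- cells, a fall in the libraries labelled uL3Δ (-0.31 ± 0.10 (SE), adjusted p = 0.0497) and a difference of -1.38 ± 0.19 (SE), adjusted p = 0.00053.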

How the data were processed

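RNA-seq was analysed for 12 libraries in 4 groups of 3, taken from the sample labels, which call the libraries biological replicates, so that p-values measure the spread between these libraries. The authors prepared TruSeq libraries, read both ends on a NovaSeq instrument and quantified genes with RSEM 1.2.25 on hg38 (per the labels' processing notes). They deposited expected counts, which are fractional because a read that fits several genes is divided between them, and TPM values, used here only to rank genes within a group. Whether counting used strand is not given in the sources used here. For 1 library (vehicle-treated HCT 116p53-/- cells, replicate 2) the deposited expected counts were per transcript (226788 rows) and were summed per gene. Names came from GENCODE release 44, for 60261 of 60617 identifiers by identifier and for 18, SOD2 among them, by transcript. Promoter sequences were RefSeq's.

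Counts were rounded. Of 33990 genes with a count, 15692 passed edgeR's filterByExpr. TMM scaling was used (factors 0.847 to 1.15), and a single model with 1 coefficient per group was fitted to the 12 libraries (edgeR 4.0.16, R 4.3.3), and each comparison used the quasi-likelihood test with Benjamini-Hochberg adjustment over all genes tested, at a threshold of 0.05. Every adjusted p is from this test unless DESeq2 is named. On simulated counts for the vehicle comparison (15188 genes, 200 changed), it recovered 100 of the genes changed 4-fold and 96 of those changed 2-fold, with 10 false calls. RSEM's posterior SD of a count was at most 13.3 for the 50 genes. A floor of 3 counts in a library was between 0.150 and 0.348 CPM.

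The 50 genes and both further lists were chosen with earlier results of these data known. Any of the 50 could be named. Library values were given by role for the genes with the highest level (up to 4), the largest called changes (up to 2 per comparison) and all with an interaction, and, outside that rule, for most others once. Of other lists at most 3 genes a direction, those with the smallest adjusted p, were named. Alternatives were DESeq2 1.42.0, library size alone, the upper quartile, no filter, 1 CPM in at least 3 libraries, only the groups compared, the replicate number as a block, subtraction of the share of the other line, and each library left out. That share was the median level, relative to the other line's mean, of genes at 50 CPM or more there and under 2% of it here with vehicle. Figures were drawn with matplotlib 3.10.9.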

Additional observations from a re-analysis of the deposited data

Results flagged for a closer look

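In 12 NF-κB genes the response to Act D differed between the lines by the test of the interaction of line and treatment (edgeR's quasi-likelihood test, adjusted p under 0.05 over 15692 genes), and in each the log2 response in the libraries labelled uL3Δ was the lower one. For the inhibitors TNFAIP3 and NFKBIE the log2 difference was -1.08 and -0.849, and for the subunit RELB it was -0.764. For the adaptors TRAF3 and TRAF6 it was -0.663 and -0.538, and for the cytokine LIF -0.835. For the early genes IER5, KLF6 and KLF4 it was -0.926, -0.797 and -0.535. For PTGS2 it was -1.285, for the urokinase receptor PLAUR -0.958 and for urokinase, PLAU, -0.818. Replicate 1 of the vehicle group labelled uL3Δ was the highest of its group for RELB, TNFAIP3, TRAF3, IER5, KLF6, PLAU and PLAUR. Without it the calls of all but RELB remained. NFKBIE, TNFAIP3, LIF, IER5, KLF6, PLAU and PLAUR passed in each of the 19 alternatives that were run. RELB's adjusted p was between 0.00412 and 0.121 over those alternatives, TRAF3's between 0.000777 and 0.0968, TRAF6's between 0.00579 and 0.0521, KLF4's between 0.00914 and 0.0872 and PTGS2's between 0.0195 and 0.117. The call of TRAF6 ended without replicate 1 of the Act D group of HCT 116p53-/- cells and in no other alternative.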

How the results depend on the processing

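Every setting was applied to the 5 counts of called NF-κB genes and to the log2 fold changes of the called genes and RPL3. Of the values for single genes, 1511 kept their direction and their side of the threshold, 142 no longer passed and 2 changed sign, and of the counts 207 stayed within 1.5 times and 18 did not. Changes of sign were seen only for RPL3, which did not pass the test. With scaling by library size alone its line difference was -0.113 with vehicle and -0.126 with Act D, against 0.127 and 0.119. In HCT 116p53-/- cells, leaving out each library in turn gave 11 to 16 genes called with Act D (17 with all libraries), 8 to 12 higher. The count lower in the libraries labelled uL3Δ with vehicle was 3 to 5, and that lower with Act D was 11 with library size alone. In the libraries labelled uL3Δ the count raised by Act D was 4 with DESeq2, 0 with library size alone, 6 with the upper quartile, 1 without a filter, 1 with only the groups compared and 1 to 2 with a library left out, and the count lowered was 11 with library size alone, 11 without a filter and 5 to 9 with a library left out. Without a filter 1 gene, TNFAIP8, had a higher response in the libraries labelled uL3Δ. The cause of these shifts was not tested. Leaving out a library gave 8 to 12 genes with a differing response, 35 to 39 genes differing between the lines with vehicle, 34 to 36 with Act D and 6 to 10 changed by Act D under the uL3Δ label. With the share of the other line subtracted, BIRC2 with vehicle, LTB with Act D in HCT 116p53-/- cells and the differing response of PTGS2 were no longer called.

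The replicate numbers of the titles did not pair the libraries. The deviations of same-numbered libraries from their group means correlated between -0.10 and 0.10 across genes, and 0 of 6 libraries correlated best with their own number between the lines with vehicle, 1 of 6 with Act D, 4 of 6 for Act D in HCT 116p53-/- cells and 0 of 6 in the libraries labelled uL3Δ. With the replicate number as a block, 37 NF-κB genes differed between the lines with vehicle, 34 with Act D, 15 responded to Act D in HCT 116p53-/- cells, 9 in the libraries labelled uL3Δ, and 8 of the 12 responses still differed (RELB, TRAF3, KLF4 and PTGS2 did not pass). Depth limits the low genes most. At 10087925 to 21138886 counts a library, changes of CCL20, LTB, CXCL2, CXCL3 and PTGS2 in HCT 116p53-/- cells rest on few counts, and IL1A, IL1B, IL6 and TNF could not be tested.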

Other observations

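A further list of 55 genes known as NF-κB targets, none of them among the 50 genes above, was counted in the same way, and 38 of them were tested. This list was also chosen with earlier results of these data known. With vehicle, the libraries labelled uL3Δ had 22 at a higher and 9 at a lower level, 57.9% and 23.7%, where 35.1% and 36.2% of all genes tested were so. The median log2 fold change was 0.92. Of the 38, 9, IL7R and CSF2 among them, reached the filter on low counts only in the libraries labelled uL3Δ, so that their direction was fixed by the filter. Among the 29 that reached it in both lines 13 were higher and 9 lower, 44.8% and 31%, and the median was 0.34. IL7R, a receptor of lymphocytes, was at 0.324, 0.207 and 0.241 CPM in HCT 116p53-/- cells with vehicle and 34.5, 33.4 and 32.3 CPM in the libraries labelled uL3Δ (6.97 ± 0.24 (SE), adjusted p = 2.8e-14). CSF2, a growth factor of granulocytes and macrophages, was at 0, 0.138 and 0.0604 CPM and 31.01, 48.3 and 44.3 CPM (9.14 ± 0.34 (SE), adjusted p = 9.6e-14). The levels of IL7R and CSF2 in HCT 116p53-/- cells with vehicle were 0.770% and 0.160% of those under the uL3Δ label, beside a background share between the lines of 0.361 to 0.566%. Lower were the cytokine IL18, at 61.4, 46.8 and 54.6 CPM and 5.62, 5.75 and 6.14 CPM (-3.21 ± 0.13 (SE), adjusted p = 4.04e-13), the adhesion receptor CD44, at 362, 349.6 and 429 CPM and 147, 129 and 143 CPM (-1.45 ± 0.10 (SE), adjusted p = 4.95e-10), and the death receptor FAS, at 16.98, 15.9 and 14.4 CPM and 3.53, 5.50 and 4.79 CPM (-1.75 ± 0.14 (SE), adjusted p = 4.23e-09). With Act D, 22 were higher and 8 lower, and of the 29 13 were higher and 8 lower (44.8% and 27.6%, beside 35.1% and 35.3% of all genes).

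In HCT 116p53-/- cells, Act D raised 9 and lowered 2 of the 38, 23.7% and 5.26%, beside 7.59% and 11.1% of all genes. PLK2, a kinase of the stress response, went from 123, 105 and 108 to 256, 235 and 238 CPM (1.12 ± 0.10 (SE), adjusted p = 1.05e-06), and the growth arrest genes GADD45A and GADD45B from 17.9, 16.4 and 17.4 to 36.2, 40.2 and 37.7 CPM (1.14 ± 0.11 (SE), adjusted p = 1.41e-06) and from 21.6, 21.4 and 18.8 to 43.8, 45.4 and 39.7 CPM (1.06 ± 0.11 (SE), adjusted p = 3.11e-06). CCND1, cyclin D1, fell from 601, 586 and 653 to 388, 434 and 392 CPM (-0.60 ± 0.11 (SE), adjusted p = 0.00117), and the survival gene BCL2L1 from 182, 181 and 165 to 141, 135 and 138 CPM (-0.35 ± 0.08 (SE), adjusted p = 0.00424). In the libraries labelled uL3Δ 2 rose, PLK2 (0.48 ± 0.10 (SE), adjusted p = 0.00498) and IL15RA (0.83 ± 0.22 (SE), adjusted p = 0.0198), and 4 fell (5.26% and 10.5%, beside 3.51% and 8.4% of all genes), among them BCL2L1 (-0.49 ± 0.08 (SE), adjusted p = 0.000455), CCND1 (-0.62 ± 0.11 (SE), adjusted p = 0.00157) and the coagulation receptor F3 (-0.61 ± 0.18 (SE), adjusted p = 0.0361). The responses differed for 7 of the 38 (18.4%, beside 6.53% of all genes), each lower in the libraries labelled uL3Δ, GADD45A (-1.20 ± 0.15 (SE), adjusted p = 0.000145), GADD45B (-0.79 ± 0.15 (SE), adjusted p = 0.00408), PLK2 (-0.63 ± 0.15 (SE), adjusted p = 0.0143) and FAS (-0.85 ± 0.20 (SE), adjusted p = 0.0184) among them. The count of genes with a higher response was 0 by edgeR, 2 at an unadjusted p under 0.05 and 0 by DESeq2.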
